A study of Danio rerio with 18 samples.

Results

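The genes described here serve mitochondrial respiration, protein import and protein synthesis, together with the carrier family slc25, most of it of the inner membrane. They were taken as all array features with a RefSeq mRNA identifier whose current symbol begins with nduf, sdh, uqcr, cox, atp5, mrpl, mrps, timm, tomm, coq or slc25. The rule found 44 genes, each measured by 1 feature, among 37105 features. Of those features, 3051 carried a RefSeq mRNA identifier, and 2659 of these had a current symbol. The other 392 had none, so further genes of these families may sit on the array unnamed and were not analysed here. The 44 genes comprised 4 of complex I (nduf), 1 of complex II (sdh), 2 of complex IV (cox), 3 of the ATP synthase (atp5), 2 of ubiquinone synthesis (coq), 6 of the large and 7 of the small mitoribosomal subunit (mrpl and mrps), 2 and 1 of the inner and outer membrane translocases (timm and tomm) and 16 carriers (slc25). No feature carried a uqcr symbol, so complex III has 0 members.

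Whole zebrafish embryos were exposed to gold nanoparticles that differ in their surface ligand, and the series asks how that surface affects gene expression. Each sample was total RNA of 40 pooled embryos on a 1-colour NimbleGen array, and each of 6 groups held 3 arrays. The groups were MES particles (50 µg/mL, 1.5 nm core), TMAT particles (10 µg/mL, 1.5 nm core) and vehicle controls at 48 hours post fertilization (hpf), and the same 3 agents at 24 hpf. MES, mercaptoethanesulfonate, is a negatively charged ligand, and TMAT, trimethylammoniumethanethiol, a positively charged one. All groups shared removal of the chorion at 4 hpf, exposure from 6 hpf until collection and, per the labels, a temperature of 37 °C. Age and length of exposure therefore change together in exposed embryos and cannot be told apart. The doses of the particles differ, so their values stand side by side here and were not tested against each other. The labels do not say whether pools came from separate clutches, so p-values measure only the spread between these pools, which may be technical.

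Complexes I to IV of the respiratory chain pass electrons from nutrients to oxygen. Complexes I, III and IV also pump protons, and the ATP synthase uses the proton gradient to make ATP. Ubiquinone carries electrons between the complexes. The mitoribosome translates the few chain subunits that mitochondrial DNA encodes, whereas most mitochondrial proteins are made in the cytosol and enter through the TOM complex of the outer and the TIM complexes of the inner membrane. In a zebrafish embryo at these ages, muscle, heart and nervous system become active while yolk supplies the fuel.

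Values are log2 intensities as deposited per array, and a difference of 1 is a doubling. A gene was called where limma, fitted once over all 18 arrays and all features, gave a Benjamini-Hochberg adjusted p under 0.05. All 44 genes lay above the random-sequence control feature on every array. Some were dim: cox5b2 and ndufs8b exceeded 2 times that feature on 15 of the 18 arrays, slc25a24l on 16, and slc25a29 and slc25a47a on 17. The other genes did so on all 18. The median intensity of an array was 1809 to 2197. The control arrays varied most. Averaged over the other arrays of its age, the correlation was 0.881 for the second 48 hpf control and 0.885 for the first 24 hpf control, against 0.940 to 0.969 for the other 16 arrays. The random-sequence feature also stood highest on control arrays, at 169 and 106 on arrays 2 and 1 at 48 hpf and at 126 and 99.5 on arrays 2 and 1 at 24 hpf, against 78.8 to 96.4 elsewhere. A second, combined table of the same values carries other labels: all 18 of its columns equalled a per-array table, but 16 equalled that of another sample. The labels do not say which of these assignments is right. Group labels here, and each comparison below, rest on the per-array tables. With the combined table as labelled limma called 0 of the 44 genes in each of the 7 comparisons between groups and both changes of effect, and also 0 features of all 37105. With the per-array labels it called 9629, 5733 and 9942 of all features between ages in MES, TMAT and control embryos. In RNA of whole embryos, fewer cells of a type and less RNA per cell cannot be told apart.

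**Figure D1:**
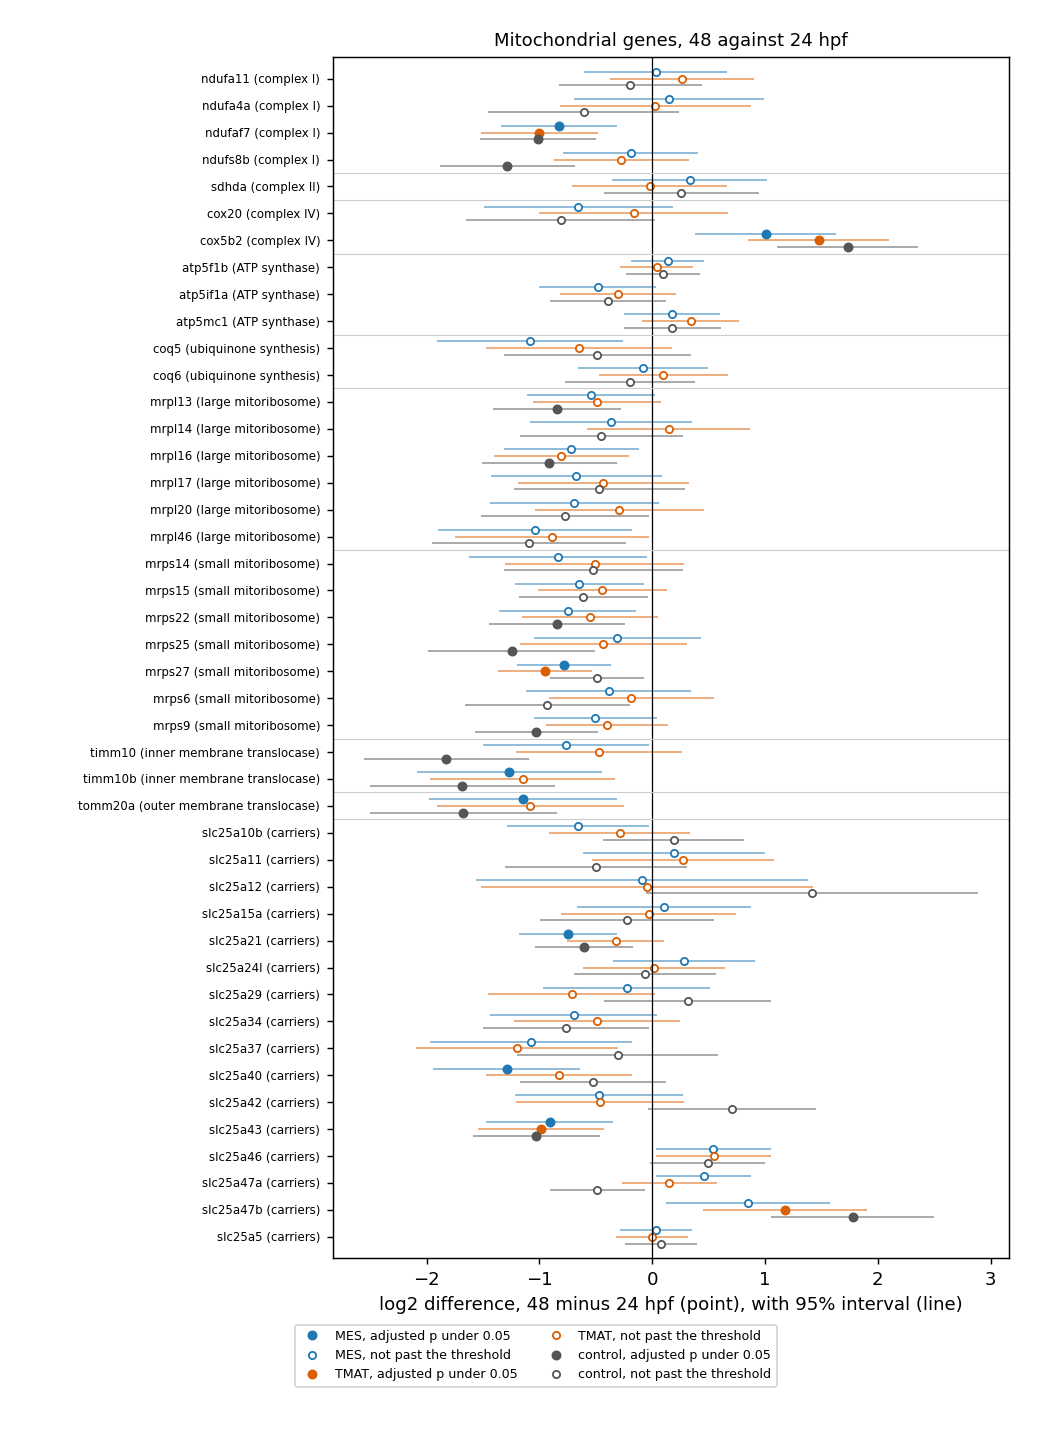
Log2 difference between 48 and 24 hpf (x axis, 48 minus 24 hpf) for each of the 44 genes (y axis, grouped by role) in MES, TMAT and control embryos; points are estimates, lines 95% intervals, and filled points passed an adjusted p under 0.05. The 13 mitoribosome and 3 import genes lie left of 0 in all groups but for mrpl14 with TMAT, whereas cox5b2 and slc25a47b lie right of it in every group.

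Between 24 and 48 hpf, 2, 0 and 3 of the 3 import genes and 1, 1 and 5 of the 13 mitoribosome genes fell in MES, TMAT and control embryos. In each group cox5b2 of complex IV rose, and carriers went both ways. In MES embryos 7 of the 44 genes fell (15.9%), where 12.6% of all features fell, and 1 rose, where 13.4% of all features rose. In TMAT embryos 3 fell (6.82%) and 2 rose, against 7.55% and 7.9% of all features. In controls 12 fell (27.3%), against 13.4% of all features, and 2 rose, against 13.4%. The share of falling genes was thus above that of all features in controls and near it in MES and TMAT embryos. The share of rising genes was below that of all features in each group. These shares were not tested against each other. At an unadjusted p under 0.05 the counts were 20 in MES embryos (45.5%, against 39.1% of all features), 12 in TMAT embryos (27.3%, against 26.3%) and 21 in controls (47.7%, against 39%). The counts also depend on the spread that limma pools over the 6 groups: fitted on the 6 arrays of a comparison alone, 21 genes were called in MES embryos (18 lower), 6 in TMAT embryos and 1 in controls, which is 47.7%, 13.6% and 2.27% of the members, against 42%, 17.1% and 7.18% of all features. With array weights, called genes numbered 23, 16 and 22 (52.3%, 36.4% and 50%), against 58.6%, 39.4% and 39.9% of all features. In that fit control arrays 1, 2 and 3 at 48 hpf had weights of 6.39, 0.19 and 0.35, so their level rests largely on array 1.

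The sizes leaned downward more than the calls. The median log2 difference of the 44 genes was -0.49 in MES embryos, -0.31 in TMAT embryos and -0.49 in controls, against -0.04, -0.03 and -0.01 over all features. It was negative for 31, 32 and 33 of the 44 genes, and for 52.3%, 51.9% and 50.5% of all features. The 3 arrays at 48 hpf all lay below the 3 at 24 hpf for 22 genes in MES embryos (50.0%, against 29.1% of all features), 12 in TMAT embryos (27.3%, against 20.1%) and 18 in controls (40.9%, against 15.7%). These shares are descriptions of the list, with no test of the list itself. Array medians in controls averaged 0.14 higher at 48 hpf, so centring arrays on their medians would lower each control age difference by that amount and raise each 48 hpf difference from controls by 0.10 with MES and 0.11 with TMAT.

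The 3 age comparisons share no array. Of the 44 genes, 25 had a negative difference in all of them, and 5 in none. By calls, 3 genes changed in MES, TMAT and control embryos alike, namely ndufaf7 and slc25a43 (lower) and cox5b2 (higher), 5 in exactly 2 of these groups, 8 in exactly 1 and 28 in none. These are 6.82%, 11.4%, 18.2% and 63.6% of the members, against 11.2%, 6.53%, 21.4% and 60.8% of all features. In a count chosen after the values were seen, all 9 arrays at 48 hpf lay below all 9 at 24 hpf for 4 genes (mrps27, ndufaf7, timm10b and tomm20a), which is 9.09% of the members and 6.76% of all features. All 9 lay above for cox5b2 alone, 2.27% of the members, where 6.66% of all features did so.

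In controls the 3 import genes had the largest falls of the 44 genes, whereas slc25a40 had the largest with MES and no import gene was called with TMAT. The product of timm10 is a small chaperone of the intermembrane space that escorts membrane proteins to the inner membrane. In MES embryos timm10 had a log2 intensity of 12.97, 12.67 and 13.23 at 48 hpf, against 13.50, 13.89 and 13.76 at 24 hpf. In TMAT embryos timm10 stood at 12.72, 13.20 and 13.43 at 48 hpf, against 13.53, 13.99 and 13.24 at 24 hpf. Among controls, timm10 read 12.48, 11.70 and 13.04 at 48 hpf, against 14.84, 14.12 and 13.74 at 24 hpf. The ages did not overlap in MES embryos and controls, while TMAT array 3 was higher at 48 than at 24 hpf. The gene fell by 1.83 ± 0.35 (log2 ± SE) in controls (limma adjusted p = 0.00117), and its differences of -0.76 with MES (adjusted p = 0.113) and -0.47 with TMAT (adjusted p = 0.440) did not pass the threshold.

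The related timm10b, a small translocase of the same space tied to the carrier translocase TIM22, separated the ages in all 3 groups. In MES embryos timm10b was at 9.29, 9.32 and 9.80 at 48 hpf, against 10.53, 10.75 and 10.93 at 24 hpf. With TMAT, timm10b was at 8.93, 9.68 and 9.70 at 48 hpf, against 10.22, 11.09 and 10.44 at 24 hpf. Control embryos had timm10b at 9.06, 9.58 and 10.15 at 48 hpf, against 12.16, 11.17 and 10.50 at 24 hpf. Every array at 48 hpf was below every array at 24 hpf. It fell by 1.27 ± 0.39 with MES (adjusted p = 0.0254) and by 1.68 ± 0.39 in controls (adjusted p = 0.00478), and the difference with TMAT was -1.15 ± 0.39 (adjusted p = 0.0564).

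The outer membrane receptor that first binds incoming presequences, tomm20a, separated the ages likewise. In MES embryos tomm20a was at 9.49, 9.22 and 9.41 at 48 hpf, against 10.21, 10.52 and 10.82 at 24 hpf. With TMAT, tomm20a was at 9.24, 9.55 and 10.00 at 48 hpf, against 10.14, 11.43 and 10.45 at 24 hpf. Control embryos had tomm20a at 9.18, 8.91 and 10.04 at 48 hpf, against 11.86, 10.78 and 10.51 at 24 hpf. No array at 48 hpf reached the lowest at 24 hpf. It fell by 1.14 ± 0.39 with MES (adjusted p = 0.0420) and by 1.67 ± 0.39 in controls (adjusted p = 0.00533), and the difference of -1.08 ± 0.39 with TMAT did not pass (adjusted p = 0.0775).

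Control array 1 at 24 hpf was the highest of all 18 arrays for timm10, timm10b and tomm20a. Over the 6 fits that each left out 1 control array, the control difference lay between -2.14 and -1.47 for timm10, between -2.07 and -1.24 for timm10b and between -2.01 and -1.27 for tomm20a, and the 3 genes were called in each fit. Fitted on the control arrays alone, only 1 of the 44 genes was called (2.27%, against 7.18% of all features). Most of these 3 calls, and most control calls below, thus depend on the spread pooled over all groups. In MES embryos, tomm20a lost its call without any 1 of the 6 arrays (adjusted p between 0.0581 and 0.134), and timm10b lost it without array 2 or 3 at 24 hpf or array 1 or 2 at 48 hpf (0.0679, 0.0745, 0.0809 and 0.0917). In TMAT embryos tomm20a would be called without array 1 at 24 hpf (adjusted p = 0.0499).

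All 13 mitoribosome genes had a negative difference in MES embryos and controls, and 12 of 13 in TMAT embryos, where mrpl14 was at 0.15 (adjusted p = 0.847), though most of these differences did not pass the test. Medians were -0.67, -0.44 and -0.84 in MES, TMAT and control embryos. The calls were fewer: 1 gene fell with MES, 1 with TMAT and 5 in controls, and none rose. The falls were 7.69%, 7.69% and 38.5% of the 13 genes, against 12.6%, 7.55% and 13.4% of all features. Of all features, 13.4%, 7.9% and 13.4% rose. The large subunit had 2 of its 6 genes called, in controls alone, and its medians were -0.68, -0.46 and -0.81 in MES, TMAT and control embryos. The small subunit had medians of -0.65, -0.44 and -0.84.

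The small-subunit gene mrps27 was called with both particles. In MES embryos mrps27 was at 10.63, 10.49 and 10.19 at 48 hpf, against 11.07, 11.27 and 11.31 at 24 hpf. With TMAT, mrps27 was at 9.90, 10.14 and 10.07 at 48 hpf, against 10.76, 11.21 and 10.99 at 24 hpf. Control embryos had mrps27 at 10.52, 10.68 and 10.34 at 48 hpf, against 10.80, 11.02 and 11.19 at 24 hpf. The lowest array of 24 hpf exceeded the highest of 48 hpf in each group. It fell by 0.78 ± 0.20 with MES (adjusted p = 0.00944) and by 0.95 ± 0.20 with TMAT (adjusted p = 0.00319), in all 6 fits that left out 1 array of either group. In controls the difference of -0.49 ± 0.20 missed the threshold (adjusted p = 0.0761).

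In controls, mrps9, which has a counterpart in bacterial ribosomes, was at 12.65, 12.19 and 12.83 at 48 hpf, against 13.83, 13.65 and 13.28 at 24 hpf. It fell by 1.03 ± 0.26 (adjusted p = 0.00789), without overlap and in each of the 6 fits that left out 1 control array. Its values were 13.06, 12.73 and 13.00 against 13.04, 13.43 and 13.83 in MES embryos, and 12.93, 12.76 and 13.09 against 13.04, 13.71 and 13.22 in TMAT embryos, at 48 against 24 hpf, and the ages overlapped in each. The differences of -0.51 and -0.40 did not pass (adjusted p = 0.157 and 0.364).

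For mrps25, a subunit protein of mitochondria with no bacterial counterpart, control arrays read 12.14, 11.34 and 12.85 at 48 hpf, against 14.09, 13.05 and 12.93 at 24 hpf. The ages did not overlap, but the gap between array 3 of each was small. It fell by 1.25 ± 0.35 (adjusted p = 0.0157), and did not pass when the first 24 hpf control was left out (-0.88, adjusted p = 0.0756) or the second 48 hpf control (-0.86, adjusted p = 0.0819). Its exposed arrays spanned 12.33 to 12.88 at 48 hpf and 12.85 to 13.39 at 24 hpf, with differences of -0.31 with MES and -0.43 with TMAT (adjusted p = 0.551 and 0.494).

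The other 3 calls in controls were less stable, and each lost its call with some array left out. The large-subunit gene mrpl16 fell by 0.91 ± 0.28 (adjusted p = 0.0254), with a difference of -0.72 with MES (adjusted p = 0.0707) and -0.81 with TMAT (adjusted p = 0.0651). Its control call was lost without array 1 or 2 at 24 hpf or array 1 or 3 at 48 hpf (adjusted p between 0.0503 and 0.0699), and its TMAT difference would be called without array 1 at 24 hpf (0.0273) or array 2 at 48 hpf (0.0398). In turn mrpl13 fell by 0.85 ± 0.27 (adjusted p = 0.0283) and mrps22 by 0.84 ± 0.28 (adjusted p = 0.0381). Without control array 1 at 24 hpf their differences were -0.66 (adjusted p = 0.106) and -0.53 (adjusted p = 0.169). Without control array 1 at 48 hpf they were -0.70 (0.116) and -0.76 (0.119), while mrpl13 also lost its call without array 2 at 24 hpf (0.0630) and mrps22 without array 2 at 48 hpf (0.122).

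The other 7 mitoribosome genes (mrpl14, mrpl17, mrpl20, mrpl46, mrps6, mrps14 and mrps15) were called in no age comparison. Their differences ran from -1.04 (mrpl46) to -0.37 (mrpl14) with MES, from -0.89 (mrpl46) to 0.15 (mrpl14) with TMAT and from -1.09 (mrpl46) to -0.45 (mrpl14) in controls. In controls mrpl46 (adjusted p = 0.0563) and mrps6 (adjusted p = 0.0562) lay just outside the threshold and passed it without array 3 at 24 hpf (0.0196 and 0.0216), mrps6 also without array 3 at 48 hpf (0.0247).

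The mean log2 intensity of the 13 genes shows the same by array. It was 11.86, 11.56 and 11.85 in MES embryos at 48 hpf, against 12.21, 12.31 and 12.66 at 24 hpf. Under TMAT it was 11.40, 11.84 and 11.99, against 11.86, 12.70 and 12.10 at 24 hpf, and in controls 11.85, 11.87 and 11.97, against 13.17, 12.62 and 12.26. The ages overlapped in TMAT embryos alone, and control array 1 at 24 hpf was the highest of all.

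**Figure D2:**
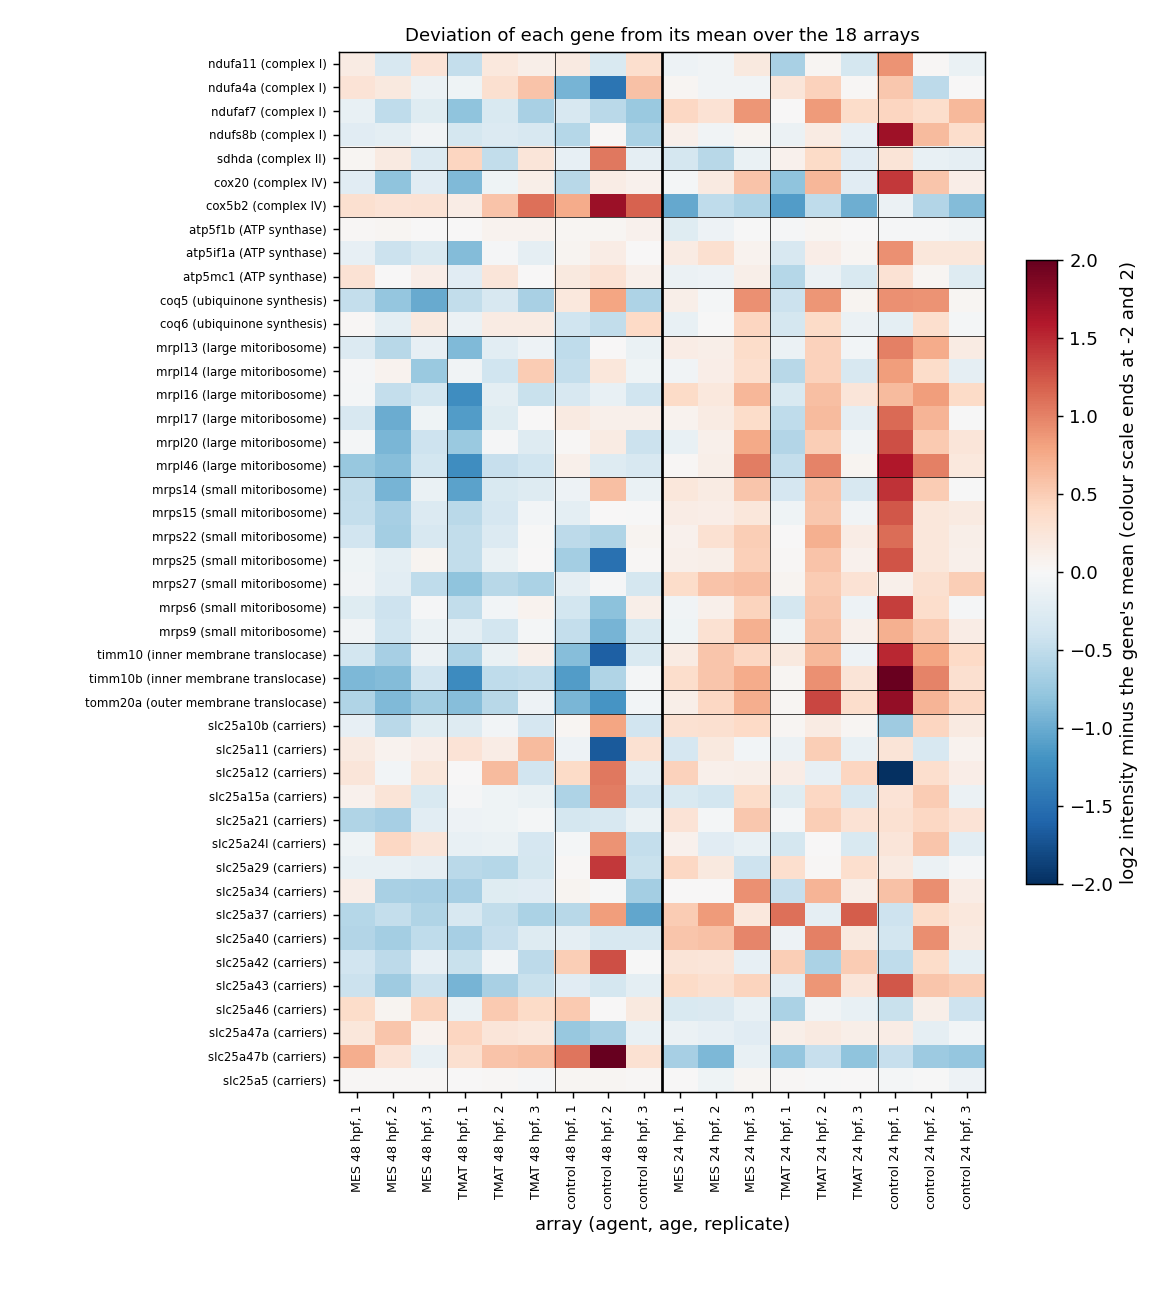
Deviation of each gene (rows, grouped by role) from its own mean over the 18 arrays (columns, by agent, age and replicate), in log2 units, with red above and blue below the mean. Most of the mrpl, mrps, timm and tomm rows shift together on many arrays, most on control array 1 at 24 hpf. There mrps27 (10.80) stays near its mean (10.70), and on control array 2 at 48 hpf the rows split. On control array 1 at 24 hpf slc25a12, at 9.17, lies beyond the end of the colour scale.

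The mitoribosome genes also shared their spread within groups. After each group's mean was removed, the mean correlation over the 78 pairs of the 13 genes was 0.574 across 18 arrays, and 94.9% of pairs were positive. Across the 12 exposed arrays it was 0.740. The 10 genes of the chain and the ATP synthase gave 0.381, the 16 carriers 0.0923 and the 2659 features with a symbol 0.0470 over 18 arrays. All pairs share the same arrays, so these are descriptions of arrays and carry no test. Within a group, most mitoribosome genes thus often stood together above or below their means, as on TMAT array 2 at 24 hpf (mean 12.70) and TMAT array 1 at 48 hpf (mean 11.40). On control array 2 at 48 hpf they split, with mrps25 at 11.34 and mrps14 at 12.27, against control means of 12.11 and 11.79.

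Genes of the respiratory chain did not move as a block. The 10 genes of complexes I, II and IV and the ATP synthase include the assembly genes ndufaf7 and cox20. Of the 10, 4 had a negative difference with MES, 5 with TMAT and 6 in controls. The calls were 1 lower and 1 higher with MES, the same numbers with TMAT, and 2 lower and 1 higher in controls. The falls were 10%, 10% and 20% of the 10 genes, against 12.6%, 7.55% and 13.4% of all features. The rises were 10% in each group, against 13.4%, 7.9% and 13.4% of all features. Mean log2 intensities of the 10 genes overlapped between ages in each group, at 11.81 to 12.003 against 11.86 to 12.08 with MES, 11.66 to 12.08 against 11.64 to 12.18 with TMAT and 11.84 to 12.08 against 11.96 to 12.60 in controls.

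The one chain gene that rose was cox5b2, a nuclear-encoded subunit of cytochrome c oxidase. In MES embryos cox5b2 was at 8.81, 8.76 and 8.79 at 48 hpf, against 7.47, 7.98 and 7.89 at 24 hpf. With TMAT, cox5b2 was at 8.64, 9.06 and 9.59 at 48 hpf, against 7.37, 7.98 and 7.51 at 24 hpf. Control embryos had cox5b2 at 9.23, 10.198 and 9.66 at 48 hpf, against 8.37, 7.90 and 7.63 at 24 hpf. All arrays of 48 hpf were above all of 24 hpf. The gene exceeded 2 times the random-sequence feature on 15 of the 18 arrays, so its lowest values lie near that feature. It was 2.01-fold higher with MES (log2 1.01 ± 0.29, adjusted p = 0.0211), 2.78-fold with TMAT (1.48 ± 0.29, adjusted p = 0.00245) and 3.32-fold in controls (1.73 ± 0.29, adjusted p = 0.0005). The TMAT and control calls stood in all 6 fits that left out 1 array of the comparison, while the MES call was lost without array 1 at 24 hpf (adjusted p = 0.0889) or array 1 or 2 at 48 hpf (0.0587 and 0.0621).

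Against it stood ndufaf7, a methyltransferase needed to assemble complex I. In MES embryos ndufaf7 was at 11.86, 11.50 and 11.77 at 48 hpf, against 12.42, 12.30 and 12.90 at 24 hpf. With TMAT, ndufaf7 was at 11.19, 11.70 and 11.35 at 48 hpf, against 12.02, 12.86 and 12.38 at 24 hpf. Control embryos had ndufaf7 at 11.69, 11.46 and 11.26 at 48 hpf, against 12.44, 12.36 and 12.65 at 24 hpf. No array of either age crossed over. It fell by 0.83 ± 0.24 with MES (adjusted p = 0.0216), by 1.00 ± 0.24 with TMAT (adjusted p = 0.00962) and by 1.01 ± 0.24 in controls (adjusted p = 0.00643). The control call held without any 1 array. The MES call was lost without array 3 at 24 hpf (0.0927) or array 2 at 48 hpf (0.0982), and the TMAT call without array 2 at 24 hpf (0.0506) or array 1 at 48 hpf (0.0549).

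The iron-sulfur subunit gene ndufs8b of complex I changed in controls alone by calls. In controls ndufs8b was at 7.40, 7.99 and 7.34 at 48 hpf, against 9.67, 8.60 and 8.31 at 24 hpf. Exposed embryos had ndufs8b at 7.74, 7.77 and 7.90 with MES and 7.62, 7.69 and 7.65 with TMAT at 48 hpf, against 8.07, 7.90 and 8.02 with MES and 7.85, 8.13 and 7.80 with TMAT at 24 hpf. The 3 control arrays at 24 hpf were the highest of the 18, and array 1 stood above the rest. On 15 of the 18 arrays ndufs8b exceeded 2 times the random-sequence feature, so its lowest values lie near that feature. The gene fell by 1.28 ± 0.28 in controls (adjusted p = 0.00348), with -1.56 to -0.88 over the 6 fits that left out 1 control array, whereas differences of -0.19 with MES and -0.28 with TMAT did not pass (adjusted p = 0.659 and 0.609).

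No other chain gene was called in an age comparison. The accessory subunit gene ndufa11 had differences of 0.03 with MES, 0.26 with TMAT and -0.19 in controls. The differences of ndufa4a, whose mammalian counterpart is assigned to complex IV, were 0.15, 0.03 and -0.61. It rests on 2 probes, the fewest of the 44 genes (median 9), and its control difference would be called without control array 3 at 48 hpf (-1.20, adjusted p = 0.00694). The membrane anchor gene of succinate dehydrogenase, sdhda, was at 0.33, -0.02 and 0.26, and cox20, an assembly chaperone of complex IV, at -0.66, -0.16 and -0.81 in MES, TMAT and control embryos.

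No ATP synthase gene was called between ages. The catalytic subunit gene atp5f1b spanned 15.56 to 15.89 over the 18 arrays, at most 0.37 below the brightest feature of its array, so a rise there would be compressed. Its differences were 0.14 with MES, 0.04 with TMAT and 0.10 in controls. For atp5mc1, of the membrane rotor, they were 0.17, 0.34 and 0.18. Those of atp5if1a, the inhibitor of the enzyme's reverse reaction, were -0.48, -0.30 and -0.39 (adjusted p = 0.155, 0.490 and 0.249). Ubiquinone synthesis had no call either: the methyltransferase gene coq5 was at -1.08 with MES (adjusted p = 0.0513), -0.65 with TMAT and -0.49 in controls, and the hydroxylase gene coq6 at -0.08, 0.10 and -0.20.

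**Figure D3:**
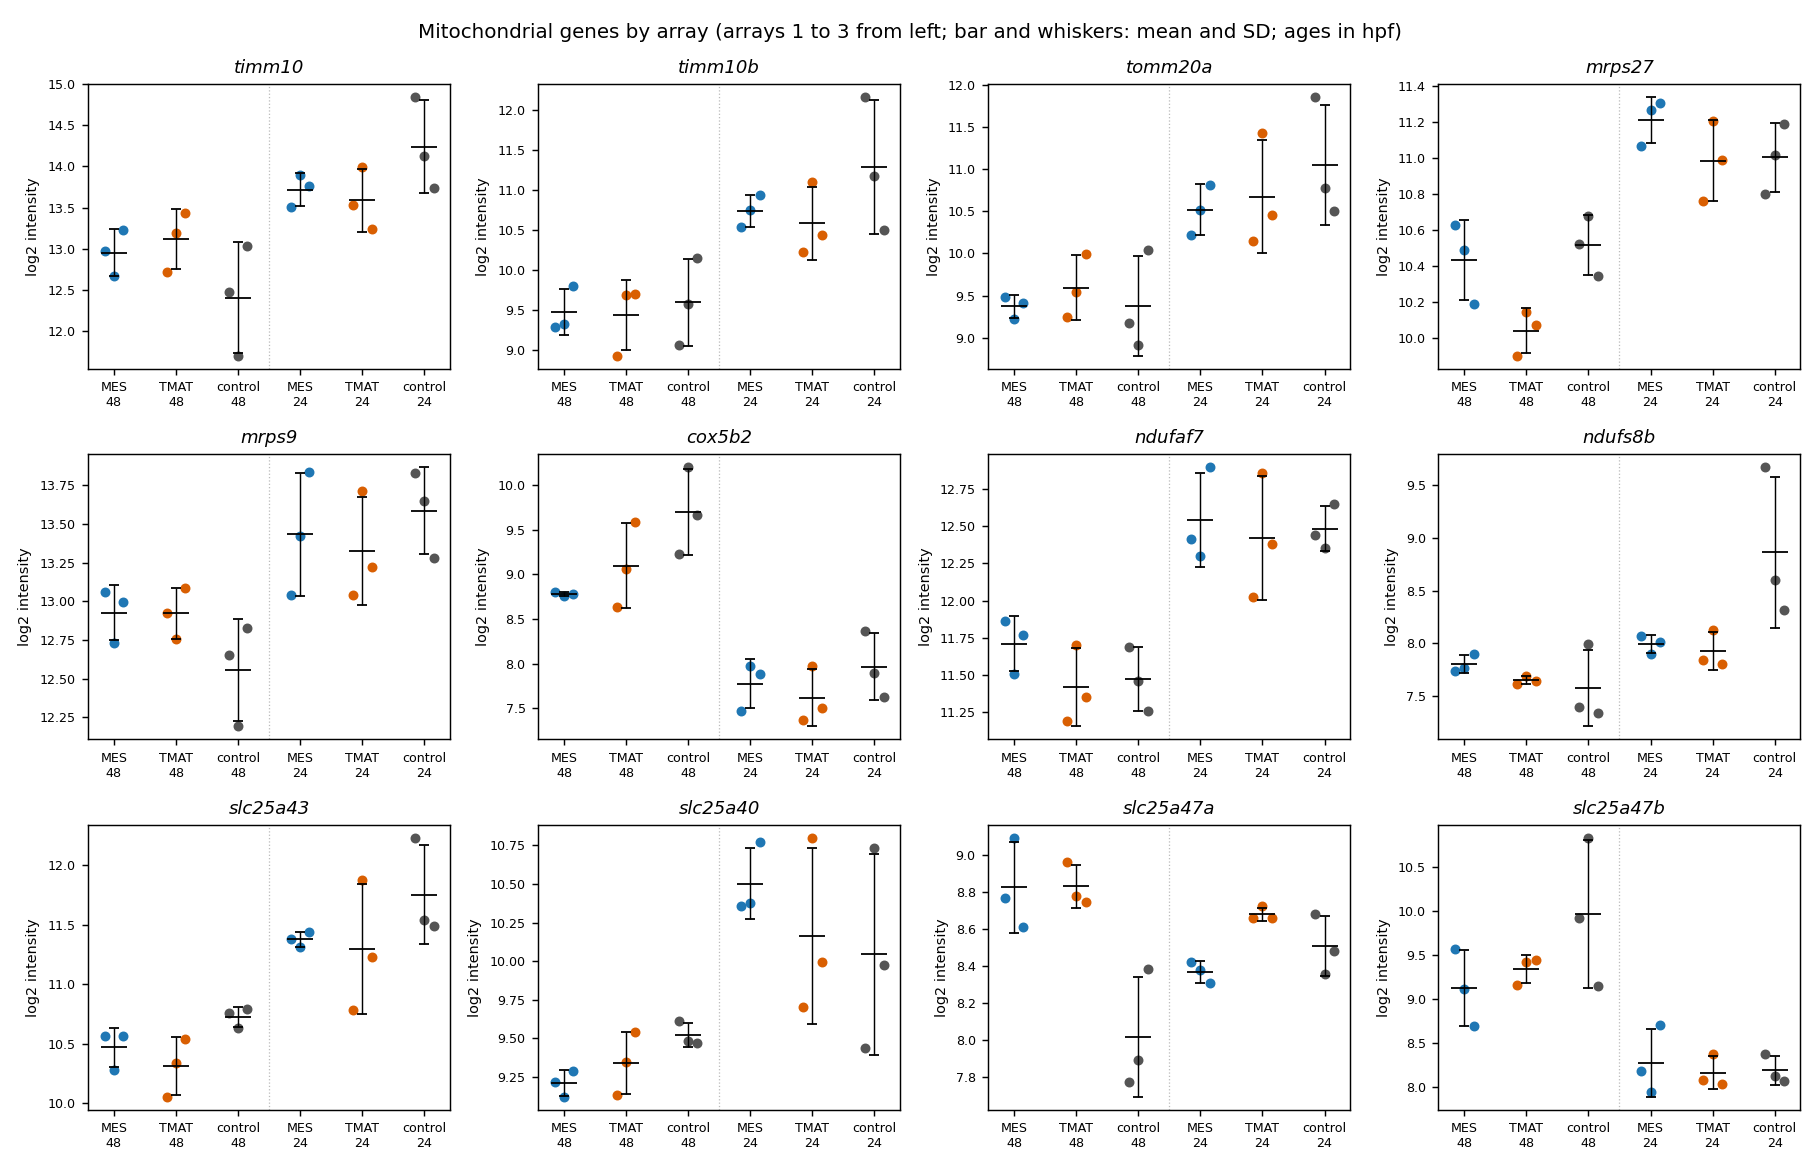
Log2 intensity (y axis) of 12 genes on each array, by agent and age (x axis, 48 hpf left of the dotted line and 24 hpf right of it); points are arrays 1 to 3, bars the mean and whiskers the SD. For timm10b, tomm20a, mrps27 and ndufaf7 the 9 arrays at 48 hpf lie below the 9 at 24 hpf, and for cox5b2 above them.

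Most carriers move metabolites, nucleotides and ions across the inner membrane. The 16 slc25 genes, which include slc25a46 of the outer membrane, went both ways. With MES 3 fell and none rose, with TMAT 1 fell and 1 rose, and in controls 2 fell and 1 rose. The falls were 18.8%, 6.25% and 12.5% of the carriers, against 12.6%, 7.55% and 13.4% of all features. The rises were 0%, 6.25% and 6.25%, against 13.4%, 7.9% and 13.4% of all features. Medians were -0.16, -0.17 and -0.14. The ADP/ATP exchanger gene slc25a5 was at 15.78 to 15.91 on all arrays, within 0.11 of the brightest feature, so its differences of 0.03 with MES, -0.0030 with TMAT and 0.08 in controls (adjusted p = 0.891, 0.994 and 0.737) are bounded by the top of the scale.

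The carrier gene slc25a43, of unassigned substrate, fell in all 3 groups. In MES embryos slc25a43 was at 10.56, 10.28 and 10.57 at 48 hpf, against 11.38, 11.31 and 11.44 at 24 hpf. With TMAT, slc25a43 was at 10.05, 10.33 and 10.54 at 48 hpf, against 10.78, 11.87 and 11.23 at 24 hpf. Control embryos had slc25a43 at 10.76, 10.63 and 10.79 at 48 hpf, against 12.23, 11.54 and 11.49 at 24 hpf. Within each group the ages were apart. It fell by 0.91 ± 0.26 with MES (adjusted p = 0.0203), by 0.99 ± 0.26 with TMAT (adjusted p = 0.0173) and by 1.03 ± 0.26 in controls (adjusted p = 0.00957). The control call held without any 1 array. The MES call was lost without any 1 array at 24 hpf (adjusted p between 0.0502 and 0.0553) or array 2 at 48 hpf (0.0886), and the TMAT call without array 2 at 24 hpf (-0.70, adjusted p = 0.0884) or array 1 at 48 hpf (0.0892).

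A transporter of glutathione in mammals, slc25a40, fell with MES. There slc25a40 was at 9.22, 9.12 and 9.29 at 48 hpf, against 10.36, 10.38 and 10.77 at 24 hpf, a difference of -1.29 ± 0.31 (adjusted p = 0.00679) that was called in all 6 fits without 1 array. With TMAT, slc25a40 was at 9.13, 9.34 and 9.54 against 9.70, 10.80 and 9.99, and in controls at 9.61, 9.48 and 9.47 against 9.43, 10.73 and 9.97. Array 1 of the 24 hpf controls lay below the 48 hpf controls. The differences were -0.83 with TMAT (adjusted p = 0.0850, and 0.0455 without array 1 at 24 hpf) and -0.53 in controls (adjusted p = 0.217).

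The oxodicarboxylate carrier gene slc25a21 fell by 0.75 ± 0.20 with MES (adjusted p = 0.0145) and by 0.60 ± 0.20 in controls (adjusted p = 0.0389). Its arrays read 11.73, 11.68 and 12.12 with MES and 11.99, 12.01 and 12.20 in controls at 48 hpf, against 12.61, 12.29 and 12.87 with MES and 12.64, 12.76 and 12.61 in controls at 24 hpf. In both groups the ages were apart. TMAT arrays, at 12.23, 12.25 and 12.30 at 48 hpf against 12.29, 12.83 and 12.62 at 24 hpf, overlapped by a narrow margin (difference -0.32, adjusted p = 0.355). The MES call was lost without array 3 at 24 hpf (0.0655) or array 1 or 2 at 48 hpf (0.0565 and 0.0713), and the control call without any array but array 3 at 48 hpf (0.0583 to 0.110).

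The paralogs slc25a47a and slc25a47b, whose mammalian counterpart is a liver carrier, had differences of opposite sign in controls, of which that of slc25a47b passed. In MES embryos slc25a47b was at 9.57, 9.12 and 8.70 at 48 hpf, against 8.19, 7.95 and 8.70 at 24 hpf. With TMAT, slc25a47b was at 9.17, 9.42 and 9.45 at 48 hpf, against 8.08, 8.38 and 8.04 at 24 hpf. Control embryos had slc25a47b at 9.92, 10.84 and 9.16 at 48 hpf, against 8.38, 8.12 and 8.08 at 24 hpf. The ages were apart with TMAT and in controls, and array 3 of each age met with MES. It was 2.27-fold higher with TMAT (log2 1.18 ± 0.34, adjusted p = 0.0270, called in 1 of 6 fits without 1 array) and 3.43-fold higher in controls (1.78 ± 0.34, adjusted p = 0.00133, called in all 6), and 0.85 ± 0.34 with MES did not pass (adjusted p = 0.0773). The difference of slc25a47a was 0.46 with MES, 0.15 with TMAT and -0.49 in controls (adjusted p = 0.101, 0.708 and 0.0796, the last 0.0170 without control array 3 at 48 hpf).

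The remaining 11 carriers were not called in any age comparison. The iron importer of red cell precursors slc25a37, mitoferrin 1, was at 9.51, 9.60 and 9.47 with MES, 9.76, 9.58 and 9.45 with TMAT and 9.52, 10.91 and 9.04 in controls at 48 hpf. At 24 hpf it was at 10.59, 10.94 and 10.28 with MES, 11.18, 9.90 and 11.29 with TMAT and 9.66, 10.45 and 10.28 in controls. The exposed arrays at 48 hpf were all below those at 24 hpf, while controls overlapped. Its differences of -1.08 with MES (adjusted p = 0.0702), -1.20 with TMAT (0.0676, and 0.0150 without TMAT array 2 at 24 hpf) and -0.31 in controls (0.626) did not pass. Of 5 measured red cell genes, hbbe3 (an embryonic globin) and blf fell in all 3 groups. The heme synthesis gene ppox fell by 1.63 with MES (adjusted p = 0.00079) and fell by 1.102 with TMAT (0.0141), with -0.12 in controls (0.795). The globin genes hbae3 (0.16, 0.13 and 0.07 in MES, TMAT and control embryos) and hbaa2 (-0.03, -0.16 and 0.45) were not called. The summed intensity of the 5 red cell genes was 70301 to 84094 at 48 hpf, against 92812 to 114743 at 24 hpf. Against controls at 48 hpf, 1 of the 5 was called lower with MES (20%, against 1.89% of all features) and 0 with TMAT (0% of all features). None of the 5 was called for a change of effect between ages with either particle. Their part in the slc25a37 values was not tested.

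The outer membrane protein gene slc25a46, of mitochondrial dynamics, had like differences in each group, at 0.54 with MES, 0.54 with TMAT and 0.49 in controls (adjusted p = 0.106, 0.158 and 0.143). The differences of slc25a34 were -0.70, -0.49 and -0.76. For slc25a12, an aspartate-glutamate carrier, the control difference of 1.42 (adjusted p = 0.142) rested on control array 1 at 24 hpf, at 9.17 against 12.50 to 13.13 on the other 24 hpf arrays. It was 0.17 without that array, and 2.09 (adjusted p = 0.0375) without control array 2 at 24 hpf. The difference of slc25a10b, slc25a11, slc25a15a, slc25a24l, slc25a29 and slc25a42 was between -0.71 (slc25a29 with TMAT) and 0.71 (slc25a42 in controls, where it was 1.01 with an adjusted p of 0.0431 without control array 3 at 48 hpf).

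Whether particles altered these genes was asked at each age against the controls of that age. The MES and TMAT comparisons share the control arrays, so like differences with both particles are not independent. At 48 hpf MES raised 1 of the 44 genes, slc25a47a, which is 2.27% of the members, where 5.76% of all features were called and 3.87% were called higher. With TMAT limma called 0 of the 44 genes, as it called 0% of all features. At an unadjusted p under 0.05 the counts were 5 with MES (11.4%, against 23.5% of all features) and 6 with TMAT (13.6%, against 20.3%). With array weights limma called 16 genes with MES (36.4%, against 51.5% of all features) and 14 with TMAT (31.8%, against 38.8%). The weights of control arrays 1, 2 and 3 at 48 hpf were 6.39, 0.19 and 0.35, so the weighted control level rests largely on array 1. The median difference of the 44 genes was -0.12 with MES and -0.18 with TMAT, against -0.14 and -0.15 over all features.

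The gene slc25a47a was at 8.77, 9.09 and 8.61 with MES and at 8.96, 8.78 and 8.75 with TMAT, against 7.78, 7.89 and 8.38 in controls at 48 hpf. All exposed arrays exceeded all controls, and control array 3 lay closest to them. It was 1.75-fold higher with MES (log2 0.81 ± 0.20, 95% interval 0.39 to 1.23, adjusted p = 0.0324), and with TMAT the difference of 0.81 ± 0.20 missed the threshold (adjusted p = 0.0659). The MES call was lost when only the arrays of the comparison were fitted (adjusted p = 0.130) or the replicate number was added as a block (0.0524). The MES difference also did not pass when control array 1 (adjusted p = 0.132) or 2 (0.108) or MES array 1 (0.104) or 2 (0.196) was left out, and the TMAT difference passed without control array 3 (0.00610). Control arrays 1 and 2, the lowest for this gene, are those with the highest random-sequence feature at 48 hpf, and its part in the difference was not tested. Of the 2 measured liver and yolk genes, c3a.2, a complement gene, was higher with MES (1.39 ± 0.38, adjusted p = 0.0443), and its difference with TMAT was 1.80 (0.0649), while fabp1b.1 was at 0.01 and -0.08. Their summed intensity was 36438 to 48413 with MES and 37701 to 49598 with TMAT, against 31305 to 54258 in controls at 48 hpf. Their part in the slc25a47a values was not tested.

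**Figure D4:**
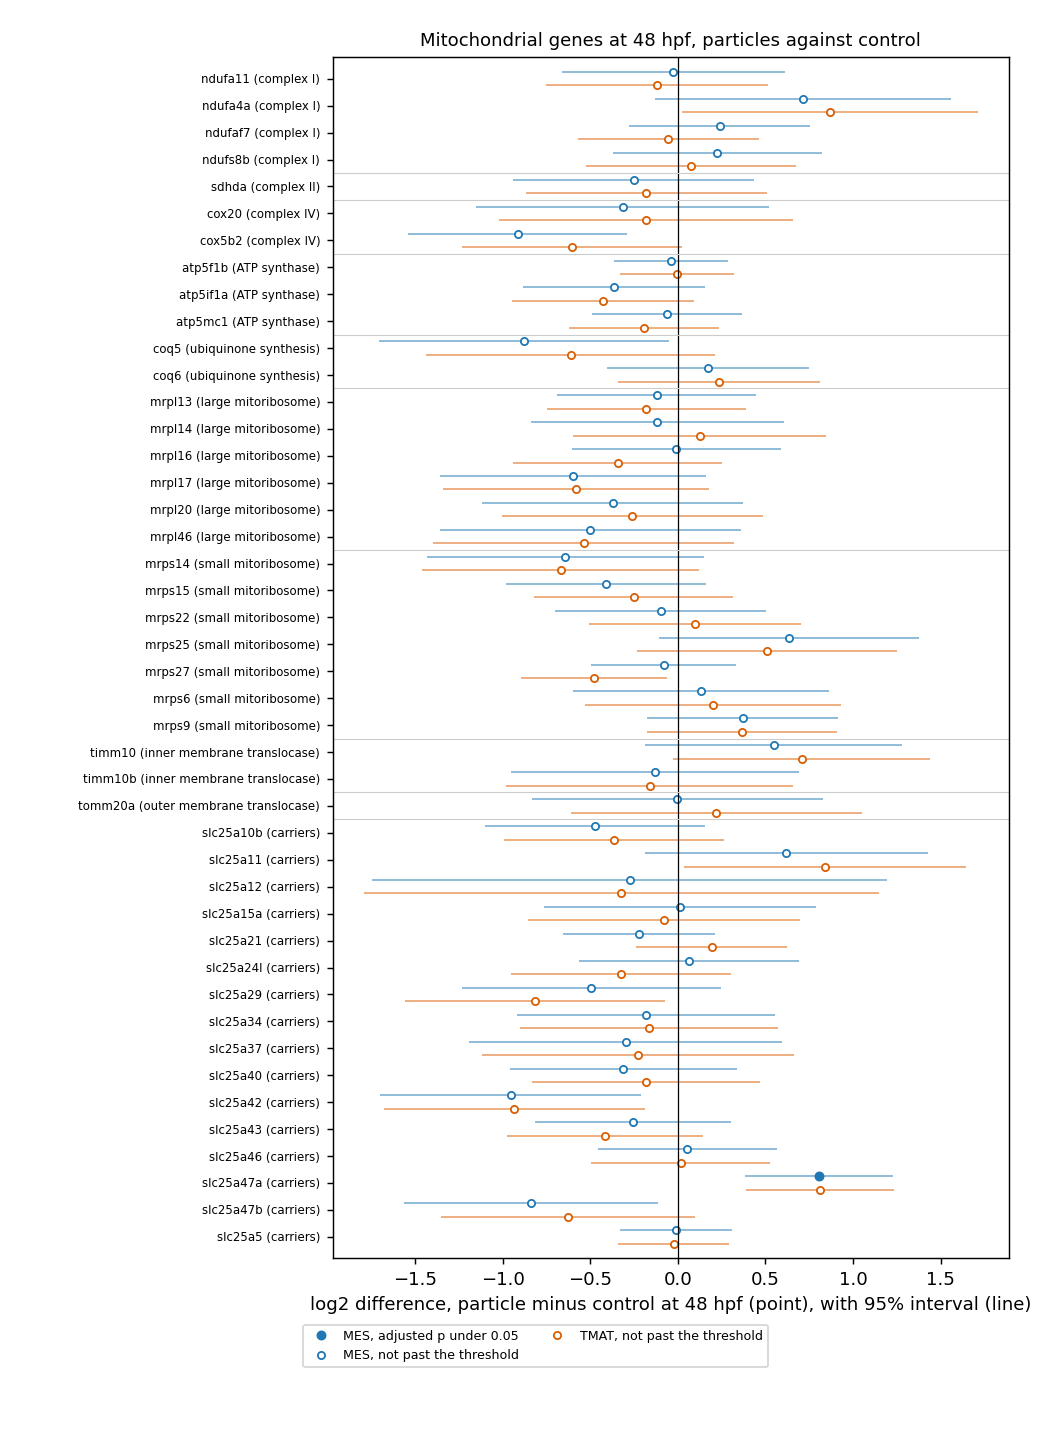
Log2 difference between particle and control embryos at 48 hpf (x axis) for each of the 44 genes (y axis, grouped by role), with MES above TMAT in each row; points are estimates, lines 95% intervals, and a filled point passed an adjusted p under 0.05. With MES slc25a47a alone passed, at 0.81, and MES and TMAT share the control arrays.

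The next genes by p did not pass. The coenzyme A carrier gene slc25a42 was at 12.40, 12.26 and 12.61 with MES and 12.34, 12.73 and 12.26 with TMAT, against 13.28, 14.07 and 12.77 in controls at 48 hpf. Every exposed array was below every control, and control array 2 was highest. Its differences were -0.95 ± 0.35 with MES (adjusted p = 0.116) and -0.93 ± 0.35 with TMAT (adjusted p = 0.165). The oxoglutarate carrier gene slc25a11 was at 13.89, 13.76 and 14.24 with TMAT, against 13.51, 11.94 and 13.93 in controls (difference 0.84, adjusted p = 0.231). Control arrays 1 and 2 lay below all TMAT arrays, array 2 furthest, and control array 3 lay among them. For mrps27 the TMAT arrays given above lay below the controls without overlap (-0.48, adjusted p = 0.196). With MES, cox5b2 lay below the controls without overlap (-0.91 ± 0.29, adjusted p = 0.0770), slc25a47b differed by -0.84 (0.151) and coq5 by -0.88 (0.186). With TMAT, ndufa4a differed by 0.87 (0.236) and slc25a29, a basic amino acid carrier, by -0.82 (0.209).

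How many of these were called changed when control array 3 was left out. That array had a mean correlation of 0.959 with the other arrays of its age, against 0.940 and 0.881 for control arrays 1 and 2. Its random-sequence feature was at 82.8, against 106 and 169 on those arrays. Without control array 3, MES had 5 called genes (2 higher and 3 lower), 11.4% against 16.9% of all features. TMAT had 6 (3 higher and 3 lower), 13.6% against 17% of all features. With MES these included ndufa4a (1.31, adjusted p = 0.0108), slc25a47b (-1.25, 0.0160), slc25a42 (-1.26, 0.0300) and coq5 (-1.25, 0.0404) beside slc25a47a. With TMAT they were slc25a47a (0.99, 0.00610), ndufa4a (1.46, 0.00694), slc25a29 (-1.20, 0.0247), slc25a42 (-1.23, 0.0323), slc25a11 (1.24, 0.0340) and slc25a47b (-1.03, 0.0362). With control arrays 1 and 2 left out together, limma called 0 with MES and 0 with TMAT, and 0 of all features.

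By role, the 13 mitoribosome genes at 48 hpf had medians of -0.12 with MES and -0.25 with TMAT, with 10 and 8 of 13 below controls. These are 76.9% and 61.5% of the 13 genes, where 60.9% and 62.4% of all features were below controls. Of the features with a symbol, from which the members come, 70.3% and 72.1% were below controls. Group means of their mean log2 intensity were 11.76 ± 0.17 with MES, 11.74 ± 0.31 with TMAT and 11.90 ± 0.07 in controls (SD, n = 3 each), and the TMAT range of 11.40 to 11.99 spanned that of controls. Import genes were at -0.13 to 0.55 with MES and -0.16 to 0.71 with TMAT. The differences of the 3 ATP synthase genes ran from -0.37 to -0.04 with MES and from -0.43 to -0.01 with TMAT.

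At 24 hpf limma called 0 of the 44 genes with MES and 0 with TMAT, and 0% of all features with either particle. At an unadjusted p under 0.05 there was 1 gene with each, ndufs8b (2.27% of the members), where 3.93% of all features passed with MES and 6.04% with TMAT. Its exposed arrays, given above, were all below the 3 controls. The difference was -0.87 ± 0.28 with MES (adjusted p = 0.787) and -0.93 ± 0.28 with TMAT (adjusted p = 0.654), against the same controls, of which array 1 was highest.

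Beyond it, the smallest p values of 24 hpf belonged to slc25a12 and slc25a40 (higher) and mrpl13 (lower) with MES, and to slc25a12 and slc25a37 (higher) and atp5if1a (lower) with TMAT. Array values of slc25a12 were 13.13, 12.77 and 12.79 with MES and 12.82, 12.50 and 13.09 with TMAT, against 9.17, 13.00 and 12.80 in controls. Control array 1 stood alone: without it the differences turned to -0.01 with MES and -0.10 with TMAT, where they were 1.23 and 1.15 with it. The gene slc25a40 differed by 0.46 and slc25a37 by 0.66, with overlapping arrays as given above. With MES mrpl13 was at 13.33, 13.30 and 13.55, against 14.19, 13.92 and 13.34 in controls (-0.42, adjusted p = 0.787). With TMAT atp5if1a was at 13.81, 14.26 and 14.17, against 15.05, 14.37 and 14.37 in controls (-0.51, adjusted p = 0.654), below them without overlap.

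Over the 44 genes the difference at 24 hpf was negative for 33 with MES (75.0%, against 58.5% of all features). With TMAT it was negative for 32 (72.7%, against 58.1%). Medians were -0.20 with MES and -0.33 with TMAT, against -0.08 over all features in either comparison. The mitoribosome stood at -0.33 with MES, where 12 of 13 were negative, and at -0.47 with TMAT, where all 13 were. All 3 import genes were negative with each particle, from -0.54 to -0.52 and from -0.70 to -0.37. None of these 16 genes had an unadjusted p under 0.05. Control array 1 at 24 hpf held the highest mitoribosome mean (13.17) and import mean (12.96) of all arrays, against 12.26 to 12.62 and 11.58 to 12.03 on the other controls of that age.

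Whether a particle's effect differed between ages was tested as the change of effect, 48 minus 24 hpf, which uses all arrays of particle and control. For MES limma called 0 of the 44 genes, where 0.0027% of all features (1 feature) were called, and for TMAT 0 of the 44 genes and 0% of all features. At an unadjusted p under 0.05, 4 genes passed with each particle (9.09%), where 16.1% of all features passed with MES and 7.47% with TMAT. With MES the smallest p values in each direction were those of slc25a47a (0.94 ± 0.28, adjusted p = 0.193, and 0.0433 without control array 3 at 48 hpf), ndufs8b (1.09 ± 0.40, 0.218), slc25a42 (-1.18 ± 0.50, 0.264) and slc25a10b (-0.85 ± 0.42, 0.332), a dicarboxylate carrier. The fourth gene to pass unadjusted with MES was timm10 (1.06 ± 0.49, 0.2998). With TMAT they were timm10 (1.35 ± 0.49), ndufs8b (1.01 ± 0.40), slc25a42 (-1.17 ± 0.50) and slc25a29 (-1.03 ± 0.49), all with an adjusted p of 0.610, and slc25a47a (0.64 ± 0.28, 0.610) passed unadjusted beside the first 3 of them. Thus timm10 and ndufs8b, called lower at 48 hpf in controls alone, are not shown to differ in their age effect between exposed and control embryos.

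For slc25a10b the arrays were 11.26, 10.89 and 11.18 with MES and 11.47, 12.22 and 11.05 in controls at 48 hpf, against 11.73, 11.75 and 11.83 with MES and 10.72, 11.85 and 11.61 in controls at 24 hpf. Only the control arrays were widely spread. For slc25a29 they were 7.54, 7.51 and 7.73 with TMAT and 8.09, 9.49 and 7.63 in controls at 48 hpf, against 8.41, 8.10 and 8.40 with TMAT and 8.25, 7.96 and 8.06 in controls at 24 hpf, where control array 2 at 48 hpf was highest.

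Other mitochondrial genes showed where the members stand in the organelle. Between 24 and 48 hpf, 13.4%, 7.9% and 13.4% of all features were called higher in MES, TMAT and control embryos. In the same order 12.6%, 7.55% and 13.4% were called lower, and 52.3%, 51.9% and 50.5% had a negative difference. In lists written with earlier results of these data known, 6 genes of the citric acid cycle and pyruvate dehydrogenase were measured. Of these mdh2, malate dehydrogenase, rose by 0.58 ± 0.19 with MES (adjusted p = 0.0338) and 0.69 ± 0.19 with TMAT (0.0193). The gene pdk2b, an inhibitory kinase of pyruvate dehydrogenase, rose by 0.89 with MES (0.0333), and its 0.84 with TMAT did not pass (0.0612). In controls mdh2 was at 0.49 (0.0672) and pdk2b at 0.54 (0.183), and none of the 6 was called. Of 10 genes of mitochondrial DNA expression, top1mt, the topoisomerase of mitochondrial DNA, fell by 0.97 with MES, by 1.14 with TMAT and by 1.02 in controls (adjusted p = 0.0155, 0.00745 and 0.0106), and 8 of 10 had a negative difference in each group. Of 6 genes of chaperones, proteases and import, gfer and chchd4b, which oxidise and trap small proteins such as the timm10 product in the intermembrane space, fell in controls (-0.96, adjusted p = 0.0386, and -0.85, adjusted p = 0.0490). None was called in exposed embryos, where gfer was at -0.67 with MES and -0.19 with TMAT, and chchd4b at -0.41 and -0.14. None of 5 assembly genes was called. Of 4 genes of fatty acid oxidation, acsl1b, which activates fatty acids, fell by 1.81 with MES and by 1.36 with TMAT (adjusted p = 0.00335 and 0.0236), with -0.78 in controls (0.144). For etfa the fall was 0.76 with MES (0.0491), with -0.41 with TMAT and -0.48 in controls, which did not pass. In controls acat1 rose by 1.03 (0.0327), with 0.21 with MES and 0.37 with TMAT, which did not pass. Of 8 genes of dynamics and turnover, bnip3, a receptor for mitophagy, rose in each group (1.29 with MES, 1.35 with TMAT and 1.76 in controls). No gene of these lists was called for a change of effect between ages, where 0.0027% of all features were with MES and 0% with TMAT. None is thus shown to differ in its age effect between exposed and control embryos.

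Of the listed regulators of mitochondrial biogenesis, 2 genes were measured. The nuclear receptor gene esrrga, a transcription factor for oxidative metabolism, rose by 2.08 ± 0.28 with MES, by 2.22 ± 0.28 with TMAT and by 2.1998 ± 0.28 in controls (adjusted p = 9.23e-05, 5.19e-05 and 4.46e-05). The other, gabpb1, was at 0.68, 0.45 and 0.32 and was not called (adjusted p = 0.228, 0.549 and 0.5965). The glycolytic gene pfkmb, the only 1 measured of 35 listed, rose by 1.302, 1.61 and 1.47. None of 5 cytosolic ribosome genes was called, with medians of -0.11, -0.09 and -0.06 beside -0.67, -0.44 and -0.84 for the mitoribosome. At 48 hpf against controls, a single gene of these mitochondrial lists was called, mterf2 of the mitochondrial transcription machinery, at 1.67 ± 0.44 with MES (adjusted p = 0.0394), and at 1.87 ± 0.44 with TMAT (adjusted p = 0.0652). Of all features, 5.76% were called there with MES and 0% with TMAT.

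Markers of tissues changed between ages as well. Of all features, 13.4%, 7.9% and 13.4% rose and 12.6%, 7.55% and 13.4% fell in MES, TMAT and control embryos. Of 14 skeletal muscle genes, 6 rose with MES (42.9%), 6 with TMAT (42.9%) and 7 in controls (50.0%), and 1 fell in each (7.14%). Their summed intensity was 279688 to 326111 at 48 hpf, against 195585 to 225573 at 24 hpf. Of 7 neuron genes, 6, 6 and 7 rose, with sums of 22638 to 26779 at 24 hpf. Their sums at 48 hpf were 65200 to 73766 with MES and 69279 to 80368 with TMAT, below the 81678 to 85702 of controls. Of 4 heart genes 2 fell with MES, 1 with TMAT and 1 in controls, with overlapping sums of 42400 to 53170 and 33499 to 54508. Of 4 ionocyte genes 1 rose in each group, and 1 fell with MES and in controls. Their sums of 7998 to 13960 and 10002 to 18021 overlapped. Against controls at 48 hpf, MES had 1 neuron gene (14.3%) and 1 skeletal muscle gene (7.14%) called lower, against 1.89% of all features. No heart or ionocyte gene was called there, and with TMAT no marker was, as for all features (0%). All measured markers of these lists lay above the random-sequence feature on every array. The part of tissue composition in the mitochondrial values was not tested.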

How the data were processed

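For each array the authors deposited linear intensities, 1 per feature, made with RMA per the submitters' processing notes (version not given in the sources used here). RMA corrects background, equalises the arrays' quantiles and summarises the probes of a feature. Members had 2 to 11 probes (median 9). The log2 of each deposited intensity was taken without pseudocount, filter or further normalization. A single fit in limma 3.58.1 (R 4.3.3) held the 6 group means (12 residual and 3.85 prior degrees of freedom) over 37105 features, with 9 two-sided contrasts adjusted separately by Benjamini-Hochberg. The median standard error of a difference was 0.327 on the log2 scale, and precision is limited by the number of arrays. The scripts were tested on simulated data. In a simulated comparison of MES with control at 48 hpf, 200 features were changed by a set log2 amount. Of these, 10 were called at a change of 1, 144 at a change of 2 and 187 at a change of 3. False calls numbered 1, 14 and 15. A doubling would thus mostly go uncalled in that setting. The real comparison had 2138 called features, so an adjusted p under 0.05 was easier to reach there. The simulated shares therefore do not carry over to the real comparisons, where some differences under 1 were called, such as 0.81 for slc25a47a.

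Array values are printed for called members, up to the 10 with the smallest p in a comparison. Where none was called, they are printed for the 2 with the smallest p each way. From other mitochondrial lists the called genes are named, and markers of tissues are given by name or by count. Members and lists were chosen with earlier results of these data known. 1 carrier gene is not reported here. Alternatives were another quantile normalization, centring on array medians, a filter on dim features (log2 under 7.40), trend and robust variance, only the arrays of a comparison, array weights (gene by gene, since the REML estimate did not converge), the replicate number as a block, the combined table as labelled and arrays left out. A planned search of promoter motifs was not run, since no promoter sequences were used here. Symbols came from RefSeq.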

Additional observations from a re-analysis of the deposited data

How the results depend on the processing

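Of the recomputed counts of called members, 117 stayed within 1.5 times the reported count and 33 did not. Shares of all features called are given above for some of these settings and not for the others. A count without such a share shows only how the calls moved with the setting. It does not set the members against other features. Among single members named by the rule, 608 recomputed values kept direction and side of the threshold, 82 lost the call, 14 gained it and 14 reversed. Fitting only the arrays of a comparison gave 0 called members for MES at 48 hpf, 21 for age in MES embryos and 1 for age in controls. Array weights, which ranged from 0.12 (control array 1 at 24 hpf) to 6.39 (control array 1 at 48 hpf), gave 16 for MES and 14 for TMAT at 48 hpf, 23, 16 and 22 for age in MES, TMAT and control embryos, and 4 and 5 for the change of the MES and TMAT effects. The replicate block gave 0 for MES at 48 hpf (slc25a47a, adjusted p = 0.0524) and 7, 5 and 13 for age, and the replicate numbers did not pair the arrays (mean correlation of same-numbered arrays -0.06 over 45 pairs). Over the 90 pairs with unlike numbers the correlation ran from -0.73 to 0.76 (mean 0.04). At 24 hpf it was 0.76 for MES array 3 with TMAT array 2 and 0.74 for MES array 1 with TMAT array 3. Such shared deviations between groups were not modelled, and their source was not tested.

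The combined table as labelled gave 0 for MES at 48 hpf and for age in MES, TMAT and control embryos. It reversed slc25a40 (-0.29) for MES at 24 hpf, slc25a42 (0.26) for TMAT at 48 hpf and (0.34) for the change of the TMAT effect, cox5b2 (-0.023) for age in controls, and, for age in MES embryos, slc25a40 (0.24), slc25a21 (0.18), cox5b2 (-1.17), ndufaf7 (0.23), timm10b (0.0034) and tomm20a (0.45). Of its 18 columns, 16 equal the per-array table of another sample. Without control arrays 1 and 2 at 48 hpf the counts were 0 for MES and 3 for age in controls. With the first 24 hpf control and the second 48 hpf control left out, a choice made after seeing the data, the counts were 0 for MES at 48 hpf and 7 for age in controls. Either that setting or leaving out the first 24 hpf control alone turned slc25a12 at 24 hpf to -0.0080 with MES and -0.0977 with TMAT, the low end of ranges that reached 1.91 and 1.82 over single arrays left out. Leaving out 1 array at a time gave 0 to 5 for MES and 0 to 6 for TMAT at 48 hpf, 2 to 7, 2 to 7 and 9 to 17 for age in MES, TMAT and control embryos, 0 to 1 for the change of the MES effect and 0 for the rest. Where not stated, the cause was not tested.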
